A study of Danio rerio with 6 samples.

Results

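The genes described here make, carry, sense and break down the vitamin D hormone, and they were read in the livers of scd mutant and wild-type (WT) zebrafish. The 7 symbols are cyp24a1, cyp27b1, cyp2r1, gc, vdra, vdrb and trpv6, and each was found among the 30954 named genes of the deposited counts. They were chosen by symbol, as the vitamin D hydroxylases, the binding protein, the receptors and a calcium channel, after cyp24a1 had stood out between the genotypes in these libraries. The mutant and WT values of the 7 genes, with the fold changes and calls of the fit over all genes, are therefore given as a description and are not independent evidence of a difference. The filter on low counts passed 5 of the 7, and vdra and trpv6 had too few reads. The mutant group is 3 libraries from zebrafish in which scd, the gene of a stearoyl-CoA desaturase, was knocked out with CRISPR-Cas9, and the WT group is 3 libraries from WT zebrafish. All were made from total RNA of liver, and both groups were kept in water of 28 °C. The allele, strain, sex, age, feeding and number of fish in a library are not stated in the labels, so a p-value here reflects the spread among these libraries alone, part of which may be technical.

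Vitamin D becomes a hormone by stepwise hydroxylation. The enzyme encoded by cyp2r1 adds the first hydroxyl group, chiefly in the liver, and the plasma protein encoded by gc carries the product. The enzyme encoded by cyp27b1 adds the activating hydroxyl group, chiefly in the kidney of mammals. The hormone binds the vitamin D receptor, of which zebrafish have a pair of genes, vdra and vdrb, and the receptor acts with a retinoid X receptor on target genes. In mammals cyp24a1 is a strongly induced target that encodes the enzyme inactivating the hormone, and trpv6, a calcium channel of transporting epithelia, is another.

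The libraries held between 22525340 and 25852954 named counts. Levels are counts scaled to a common library total (CPM), with library sizes corrected by TMM, the trimmed mean of M-values. All 9 hepatocyte markers examined were detected, with summed levels of 29590 to 66963 CPM in mutant livers and 50419 to 56666 CPM in WT livers. The level of scd does not check the labels, since it was 693, 111 and 56.7 CPM in mutant replicates 1 to 3, against 30.3, 18.1 and 431 CPM in WT replicates 1 to 3. Transcripts of oocytes reached 211 CPM in mutant replicate 1, as well as 123 and 147 CPM in WT replicates 1 and 2, but to 1.19 and 0.171 CPM in mutant replicates 2 and 3 and 1.80 CPM in WT replicate 3. Mutant replicate 3 nearly lacked the yolk protein transcripts that made up 44.1% to 57.3% of counts in the other 5 libraries, and its TMM factor was 2.97, against 0.632 to 1.07 in the others. Its raw counts therefore look high beside its CPM.

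Transcripts of cyp24a1 were almost absent from every mutant liver and plentiful in every WT liver. The counts were 13, 7 and 17 in mutant replicates 1 to 3, against 6140, 7408 and 28950 in WT replicates 1 to 3. As levels these were 0.797, 0.288 and 0.242 CPM in mutant livers, against 295, 388 and 1627 CPM in WT livers. The groups were far apart, and the lowest WT level was 370.1 times the highest mutant level. The means were 0.442 ± 0.308 CPM in mutant livers and 770.04 ± 743.80 CPM in WT livers (SD, n = 3 each).

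The mutant levels rest on few reads, and their 95% counting intervals ran from 0.116 to 1.36 CPM over the 3 libraries. These intervals cover counting error only. The log2 fold change, mutant over WT, was -10.84 ± 1.16 (SE), the second lowest of 12889 tested genes. Of the 5 members tested, 1 was called at an adjusted p under 0.05, namely cyp24a1, where 31 of all tested genes (0.241%) were called, 16 of them (0.124%) lower in mutant livers, and this call is what the gene was chosen on. It held under 12 of 18 alternative settings, and under the other 6, among them leaving out any library but mutant replicate 1 or WT replicate 3, the edgeR adjusted p lay between 0.061 and 0.173.

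The spread of cyp24a1 among WT livers was itself wide. WT replicate 3 stood 5.52 times above WT replicate 1, whereas the mutant livers spanned 3.29 times between the lowest and the highest. Without WT replicate 3 the log2 fold change was -9.69 ± 0.76 (SE). Within the libraries that held oocyte transcripts, mutant replicate 1 was 8.61 below the mean of WT replicates 1 and 2 on the log2 scale. Within those without them, mutant replicates 2 and 3 averaged 12.24 below WT replicate 3 on the same scale. The difference was present in both divisions, with 1 library on one side of each. Since the mutant and WT levels of cyp24a1 do not overlap, any such division had to show it, so this is a description only.

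**Figure D1:**
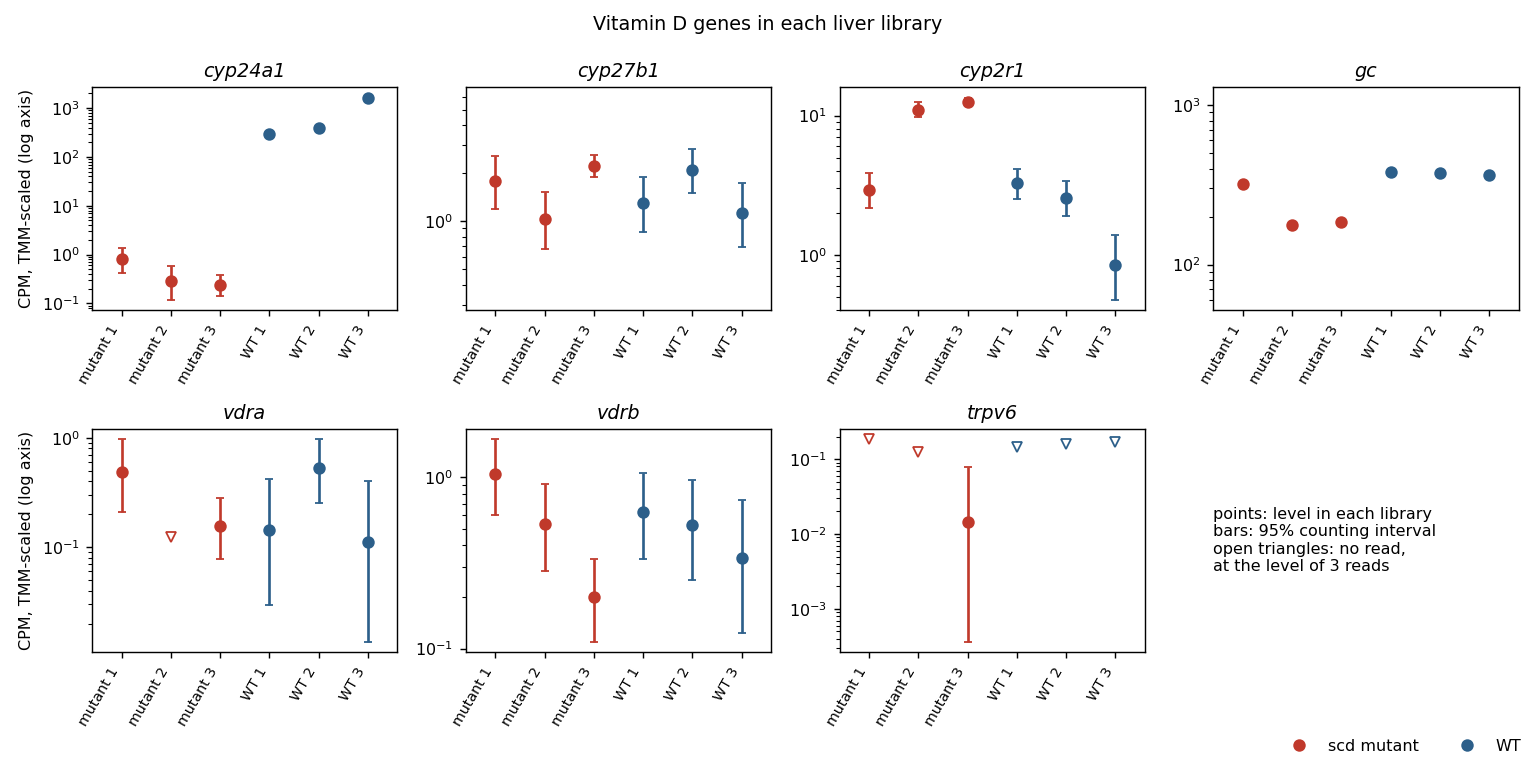
Level of each of the 7 genes in the 3 scd mutant libraries (red, left) and the 3 WT libraries (blue, right), as TMM-scaled CPM on log axes that differ between panels. Bars are 95% counting intervals and open triangles mark libraries with no read, drawn at the level of 3 reads. In the cyp24a1 panel the mutant points lie under 1 CPM and the WT points at 295 CPM or more, while the cyp27b1, vdra and vdrb points overlap.

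In mammals cyp24a1 is known chiefly from kidney and intestine, so markers of these tissues were read in the same libraries. The 9 kidney markers summed to between 19.9 and 44.9 CPM in mutant livers and between 46.9 and 55.5 CPM in WT livers. Most of this, except in mutant replicate 3, was trpm7, a channel kinase found in many tissues, at 11.7 to 40.4 CPM in mutant livers and 39.1 to 49.8 CPM in WT livers. The cadherin gene cdh17 was the larger part in mutant replicate 3, at 24.8 CPM there and 3.06 and 3.50 CPM in mutant replicates 1 and 2, against 5.23 to 8.09 CPM in WT livers. Without trpm7 the other 8 kidney markers summed to 4.53, 4.24 and 27.2 CPM in mutant replicates 1 to 3, against 5.67, 7.54 and 8.82 CPM in WT replicates 1 to 3, so that mutant replicate 3 was then the highest. Apart from cdh17 these markers had few reads. The podocyte gene wt1a had 8, 7 and 104 reads in mutant livers, against 3, 9 and 12 reads in WT livers, and the bicarbonate transporter gene slc4a4a had 8, 6 and 34 reads in mutant livers, against 5, 1 and 1 reads in WT livers. The tubule transporter gene slc12a3 had 0, 0 and 2 reads in mutant livers and none in WT livers, and the kidney factor gene pax2a had no read in any library.

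The 7 enterocyte markers in the table summed to between 10.9 and 20.7 CPM in mutant livers and between 79.2 and 145 CPM in WT livers. Nearly all of it in WT livers was fabp2, a fatty acid-binding protein gene, at 16.7, 8.52 and 7.84 CPM in mutant livers, against 76.3, 143 and 115 CPM in WT livers. Without fabp2 the other 6 markers summed to 3.98, 2.35 and 6.52 CPM in mutant livers, against 2.93, 1.36 and 2.08 CPM in WT livers, so that their ranges overlapped. Most of this was the aminopeptidase gene anpepb, at 2.33, 2.35 and 5.18 CPM in mutant livers, against 2.78, 1.05 and 1.97 CPM in WT livers. The microvillus gene vil1 had 18, 0 and 68 reads in mutant livers, against 2, 5 and 0 reads in WT livers. The intestinal genes cdx1b and slc10a2 had at most 7 reads in a mutant liver and none in WT livers, and alpi.1 had no read in any library. The full kidney and enterocyte sums were both lower in every mutant liver, but this rested on trpm7 and fabp2, and the part of these tissues in the cyp24a1 difference was not tested. In bulk liver, fewer cells of a type and less RNA per cell cannot be told apart.

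The first hydroxylase gene, cyp2r1, was higher in 2 of the 3 mutant livers. It had 48, 268 and 884 counts in mutant replicates 1 to 3, against 68, 49 and 15 counts in WT replicates 1 to 3. The levels were 2.94, 11.03 and 12.6 CPM in mutant livers, against 3.27, 2.57 and 0.843 CPM in WT livers. Mutant replicate 1 lay inside the WT range, and WT replicate 3 lay well under the other WT livers. The log2 fold change was 1.99 ± 0.67 (SE), with a 95% interval of 0.42 to 3.56, and the gene was not called.

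The libraries that held oocyte transcripts showed little of this difference in cyp2r1. Among them mutant replicate 1 differed from the mean of WT replicates 1 and 2 by 0.02 on the log2 scale. Among the libraries without oocyte transcripts, mutant replicates 2 and 3 averaged 3.70 above WT replicate 3. A test of the difference between these divisions was not run.

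The activating hydroxylase gene, cyp27b1, was low in both genotypes, with overlapping ranges. It had 29, 25 and 156 counts in mutant replicates 1 to 3, against 27, 40 and 20 counts in WT replicates 1 to 3. As levels these were 1.78, 1.03 and 2.22 CPM in mutant livers, against 1.296, 2.096 and 1.12 CPM in WT livers. The high raw count of mutant replicate 3 came down with its scaling factor. The log2 fold change was 0.16 ± 0.47 (SE) with a 95% interval of -0.93 to 1.25, and the gene was not called.

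Of the 5 tested members, the carrier gene gc varied least among WT livers. It had 5217, 4292 and 12907 counts in mutant replicates 1 to 3, against 7907, 7195 and 6466 counts in WT replicates 1 to 3. Its level was 319.7, 177 and 184 CPM in mutant livers, against 379.7, 377 and 363 CPM in WT livers. All 3 mutant levels lay below the WT ones, by little in mutant replicate 1. The means were 227 ± 80.5 CPM in mutant livers and 373 ± 8.68 CPM in WT livers (SD, n = 3 each).

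The log2 fold change of gc was -0.72 ± 0.38 (SE), with a 95% interval of -1.61 to 0.17, and the gene was not called. With library totals in place of TMM its sign turned, to 0.06 ± 0.61 (SE), under a shift of 0.98 in the median of all tested genes, so relative to that median it was -0.92. Groups that do not overlap were common here. They were seen in 27.8% of all tested genes, beside gc and cyp24a1 among the 5 tested members.

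Both receptor genes stood near the limit of detection. The vdra gene had 8, 0 and 11 counts in mutant replicates 1 to 3, against 3, 10 and 2 counts in WT replicates 1 to 3, or 0.490, 0 and 0.157 CPM in mutant livers and 0.144, 0.524 and 0.112 CPM in WT livers. The count of 0 in mutant replicate 2 allows up to 0.123 CPM. Summed over the groups and scaled by library size, the vdra ratio of mutant to WT was 0.660, with a counting interval of 0.318 to 1.396. This interval pools the reads of a group and leaves out the spread among its libraries. Neither genotype was set apart, at a depth that a moderate change would not show.

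The vdrb gene had 17, 13 and 14 counts in mutant replicates 1 to 3, against 13, 10 and 6 counts in WT replicates 1 to 3. The levels were 1.04, 0.535 and 0.200 CPM in mutant livers and 0.624, 0.524 and 0.337 CPM in WT livers. The WT range fell inside the mutant range. The log2 fold change was 0.19 ± 0.72 (SE), with a 95% interval of -1.50 to 1.88. It turned to -0.58 by limma-voom and to -0.50 without mutant replicate 1.

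The calcium channel gene trpv6 was not detected in WT livers at this depth. It had 0, 0 and 1 counts in mutant replicates 1 to 3, against 0, 0 and 0 counts in WT replicates 1 to 3. A count of 0 allows up to 0.144 to 0.169 CPM in the WT libraries. The other 5 ionocyte markers, of the ion-transporting skin and gill cells where trpv6 is known in fish, had at most 1 read in any library. No fold change is given for a gene at or under this floor in both groups.

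Ratios within a library need no scaling factor, and those below were chosen after the values were seen. Per 1000 gc reads, cyp24a1 had 2.49, 1.63 and 1.32 reads in mutant replicates 1 to 3, against 777, 1030 and 4477 reads in WT replicates 1 to 3. On the log2 scale the ratio averaged -9.09 ± 0.47 in mutant livers and 0.61 ± 1.36 in WT livers (SD, n = 3 each). The order of the mutant and WT livers was thus the same as in scaled CPM.

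Per 1000 gc reads, cyp2r1 had 9.20, 62.4 and 68.5 reads in mutant replicates 1 to 3, against 8.60, 6.81 and 2.32 reads in WT replicates 1 to 3. The mutant values lay above the WT ones, though mutant replicate 1 did so only narrowly, and set against fabp10a, a hepatocyte gene, it lay within the WT range. For gc itself there were 37.6, 45.6 and 31.6 reads per 1000 fabp10a reads in mutant replicates 1 to 3, against 53.3, 47.9 and 49.1 reads in WT replicates 1 to 3. Of the other hepatocyte markers, only apoa2 and ttr also gave gc this lower position in every mutant liver. The hepatocyte marker cp had 28525, 12092 and 71400 reads in mutant replicates 1 to 3, against 48632, 46395 and 40332 reads in WT replicates 1 to 3. Relative to cp, gc lay higher in every mutant liver. Relative to the markers tfa, fgb, hp, serpina1 and apobb.1 the groups overlapped. Such ratios show unequal change of a pair of genes, not which of them changed.

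**Figure D2:**
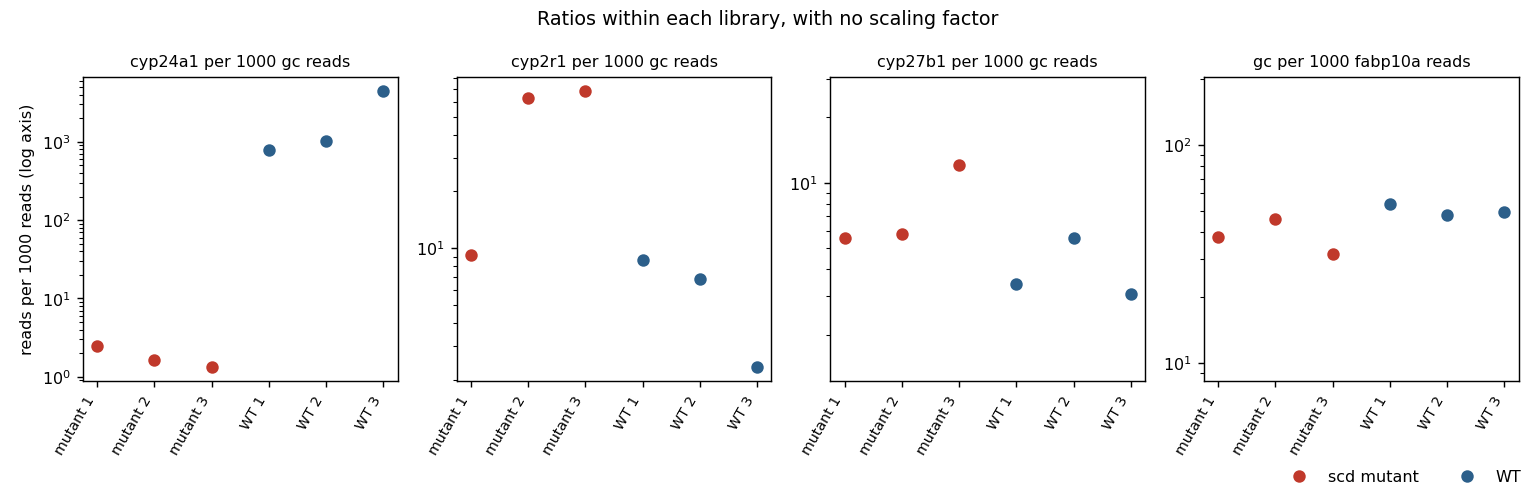
Reads of cyp24a1, cyp2r1 and cyp27b1 per 1000 gc reads, and of gc per 1000 fabp10a reads, in the 3 mutant libraries (red, left) and the 3 WT libraries (blue, right), on log axes that differ between panels. For cyp24a1 the mutant points lie between 1.32 and 2.49 and the WT points between 777 and 4477.

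**Figure D3:**
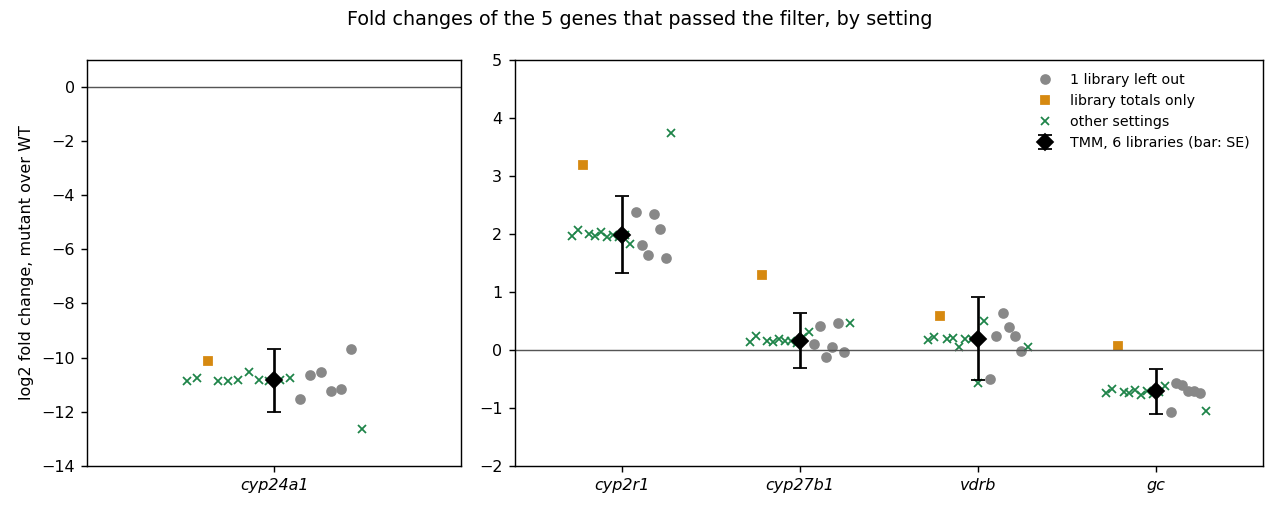
Log2 fold change, mutant over WT, of the 5 members that passed the filter. Black diamonds are the TMM fit on 6 libraries with its SE, grey circles leave out 1 library, orange squares use library totals and green crosses are the other settings. All cyp24a1 points lie between -12.63 and -9.69, all cyp2r1 points are above 0, and cyp27b1, vdrb and gc have points on both sides of 0.

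The genes whose pattern over the 6 libraries was nearest to that of cyp24a1 were zgc:171534, klhl24b, tdo2b, qpct and znf1179. Likeness was the root mean square distance between log2 CPM profiles, each centred on its own mean, over all tested genes. The distance was 0.972 for zgc:171534 and at most 2.398 for the other 4, against a median of 5.25 over all tested genes, and dio3b followed at 2.57. With a smaller prior count of 0.5 in the log, 3 of these 5 remained among the nearest 5. Since cyp24a1 differs so much between the genotypes, this distance mostly picks genes with a large difference in the same direction.

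Among them, tdo2b, the gene of an enzyme that starts tryptophan breakdown, shared the high level in WT replicate 3. It stood at 18.9, 0.288 and 2.15 CPM in mutant replicates 1 to 3, against 182, 157 and 655 CPM in WT replicates 1 to 3. The other genes were more even among WT livers. The uncharacterised zgc:171534 stood at 0, 0.0412 and 0 CPM in mutant livers, against 97.998, 98.8 and 95.4 CPM in WT livers. The gene klhl24b, of a kelch-like protein, stood at 1.90, 0.123 and 1.67 CPM in mutant livers, against 61.6, 68.7 and 109 CPM in WT livers, and was also highest in WT replicate 3.

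**Figure D4:**
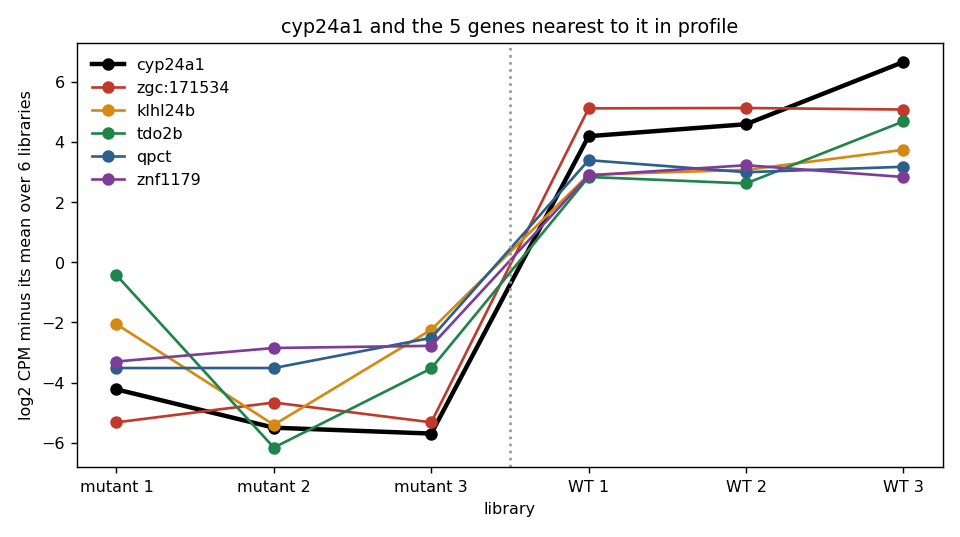
Log2 CPM of cyp24a1 (thick black line) and of the 5 genes nearest to it in profile, each minus its own mean over the 6 libraries, with mutant libraries left of the dotted line and WT libraries right of it. All 6 lines lie below 0 in the mutant libraries and above 0 in the WT libraries, and those of cyp24a1, tdo2b and klhl24b are highest in WT replicate 3.

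The genes near cyp24a1 on the chromosome that could be tested showed no difference of its size. Hardly any gene could, since its log2 fold change was the second lowest of 12889 tested genes. Gene order was taken from RefSeq's annotation of assembly GRCz12tu, another build than the counts were made on. Of the 5 coding genes on either side, 8 in all were counted and 4 of them were tested. These were pltp, ctsa, ncoa5 and rtf2, with log2 fold changes of 0.24, 0.62, 0.58 and 0.25. None was called, beside 0.241% of all tested genes. The groups overlapped for pltp and rtf2, while ctsa and ncoa5 were higher in every mutant liver, as were 1945 of 12889 tested genes. The nearest genes were not among them, since nat8l2 was not in the counts and eya2 and slc12a5a had too few reads.

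Around the 7 genes, lists of the wider pathway held 105 genes of the table, of which 58 passed the filter. The fit called 0 of these 58 (edgeR quasi-likelihood test, adjusted p under 0.05 over all genes), beside 0.241% of all tested genes. At an unadjusted p under 0.05, 10 were higher and 10 lower in mutant livers, where 10.8% of all tested genes were higher and 8.29% lower. DESeq2 called 10 of the 64 list genes it tested, where it called 6.32% of all genes tested, and limma-voom called 0. The DESeq2 calls were dhcr7, sc5d, ebp and g0s2, higher in mutant livers, and ncor1, rxrgb, thraa, nr1h5, igfbp1b and lrp5, lower. The median log2 fold change was -0.18 over the 58 genes and 0.04 over all tested genes.

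The genes of the enzymes around the sterol precursor of vitamin D stood above WT in every mutant liver, as did 1945 of 12889 tested genes. They are dhcr7, whose enzyme takes the precursor on to cholesterol, and sc5d and ebp of the steps just before it. The median log2 fold change of the 3 was 4.09, and none was called, with the lowest adjusted p at 0.0654 (edgeR quasi-likelihood test). For dhcr7, chosen after its values were seen, the level was 70.2, 84.6 and 13.2 CPM in mutant replicates 1 to 3, against 6.43, 5.03 and 7.08 CPM in WT replicates 1 to 3. The mutant values lay above the WT ones, least so in mutant replicate 3, and the log2 fold change was 3.18 ± 0.66 (SE, edgeR adjusted p = 0.0911). Without mutant replicate 3, edgeR called dhcr7 alone among the 58 genes, where 21 of 13027 genes were called. DESeq2, which called 6.32% of all genes it tested, called all 3. So did edgeR with library totals, where 467 of 12889 genes were called, with igfbp1b, s100a10b, g0s2 and cdkn1a of other lists among them. With no filter edgeR called 211 of 23138 genes, with ebp and nr1h5, a gene of another list, among them.

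For ebp, the list's gene with the highest mean, the level was 91.2, 130.0 and 30.7 CPM in mutant livers, against 3.17, 2.93 and 7.42 CPM in WT livers (log2 fold change 4.22 ± 0.67, SE, edgeR adjusted p = 0.0654). The isomerase it encodes acts before the precursor is formed.

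Among the other side-chain hydroxylases, 4 of 6 genes in the table passed the filter and 0 were called. The highest in level was cyp3a65, a xenobiotic oxidase gene, at 17.5, 17.0 and 60.5 CPM in mutant livers, against 135, 34.1 and 132 CPM in WT livers. Its groups overlapped through WT replicate 2. The genes cyp27a1.2, cyp27a1.4 and cyp27a7, related to the mammalian sterol side-chain hydroxylase, were also chosen after their values were seen. Their log2 fold changes were 0.88 ± 0.60, 1.21 ± 0.38 and 0.65 ± 0.38 (SE). The groups overlapped for cyp27a1.2 and cyp27a7, while cyp27a1.4 was higher in every mutant liver, as were 1945 of 12889 tested genes. Of the electron donors to these enzymes, 5 genes passed the filter, 0 were called, and their median was -0.21. The highest in level was porb, a reductase gene of the microsomal enzymes, at 518, 375 and 326 CPM in mutant livers, against 660.4, 533 and 493 CPM in WT livers.

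Of the receptor partners and coregulators, 13 passed the filter and 0 were called, with a median log2 fold change of -0.15. The coactivator gene ncoa2, the highest in level, stood at 44.4, 16.1 and 8.91 CPM in mutant livers, against 35.8, 36.3 and 30.1 CPM in WT livers. The retinoid X receptor gene rxrgb and the corepressor gene ncor1, chosen after their values were seen, were lower in every mutant liver, with log2 fold changes of -2.02 and -1.59 (edgeR adjusted p = 0.159 and 0.143). DESeq2 called both. Of this list, 3 tested genes were lower and 1 higher in every mutant liver, beside 1644 and 1945 of 12889 tested genes. The groups overlapped for the other retinoid X receptor genes tested. Their log2 fold changes were -1.065 for rxraa, 0.004 for rxrba, -0.15 for rxrbb and 0.36 for rxrga. The other NR1 receptors, a family of ligand-activated factors that includes the vitamin D receptors, had 10 genes tested, 0 called and a median of -0.74. Of these NR1 genes, 5 were lower and 2 higher in every mutant liver, beside 1644 and 1945 of 12889 tested genes. Among the lower ones, nr1h5 and thraa were chosen after their values were seen. Their log2 fold changes were -1.78 and -2.06 (edgeR adjusted p = 0.0914 and 0.12), and DESeq2 called both. The highest of the NR1 list in level, the oxysterol receptor gene nr1h3, stood at 17.4, 17.4 and 22.4 CPM in mutant livers, against 29.4, 32.5 and 72.1 CPM in WT livers.

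The hormones and receptors of calcium and phosphate balance were scarcely expressed, and 2 of 17 genes in the table passed the filter. The klotho gene kl, whose protein serves a phosphate hormone, stood at 2.57, 0.700 and 2.08 CPM in mutant livers, against 1.97, 4.92 and 1.52 CPM in WT livers. For the uptake receptors of the carrier protein, 1 of 5 genes passed, the adaptor gene dab2, at 4.41, 0.946 and 4.09 CPM in mutant livers, against 6.10, 6.65 and 0.674 CPM in WT livers. Neither was called, and the groups overlapped for both. Of the calcium and phosphate transporters and binding proteins, 10 of 26 passed and 0 were called, with a median of -0.35. The phosphate transporter gene slc20a1b, the highest of them, stood at 717, 629 and 280.0 CPM in mutant livers, against 893, 784 and 2127 CPM in WT livers.

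Of 17 genes listed as further receptor targets in mammals, 10 passed the filter and 0 were called, with a median of 0.06. The gluconeogenic gene fbp1b, the highest in level, stood at 758, 415 and 352 CPM in mutant livers, against 697, 514 and 393 CPM in WT livers. The growth factor-binding protein gene igfbp1b, chosen after its values were seen, stood at 1.23, 0.823 and 1.198 CPM in mutant livers, against 10.7, 21.0 and 165 CPM in WT livers (log2 fold change -5.91 ± 1.197, SE, edgeR adjusted p = 0.0916). DESeq2 and edgeR with library totals called igfbp1b. The groups were apart, and WT replicate 3 was the highest. Of this list, 2 tested genes were lower and 2 higher in every mutant liver, beside 1644 and 1945 of 12889 tested genes. Among the higher ones was g0s2, also chosen after its values were seen, with a log2 fold change of 2.25. For the related gene igfbp1a the groups overlapped. How many of all genes were highest in WT replicate 3 was not counted.

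**Figure D5:**
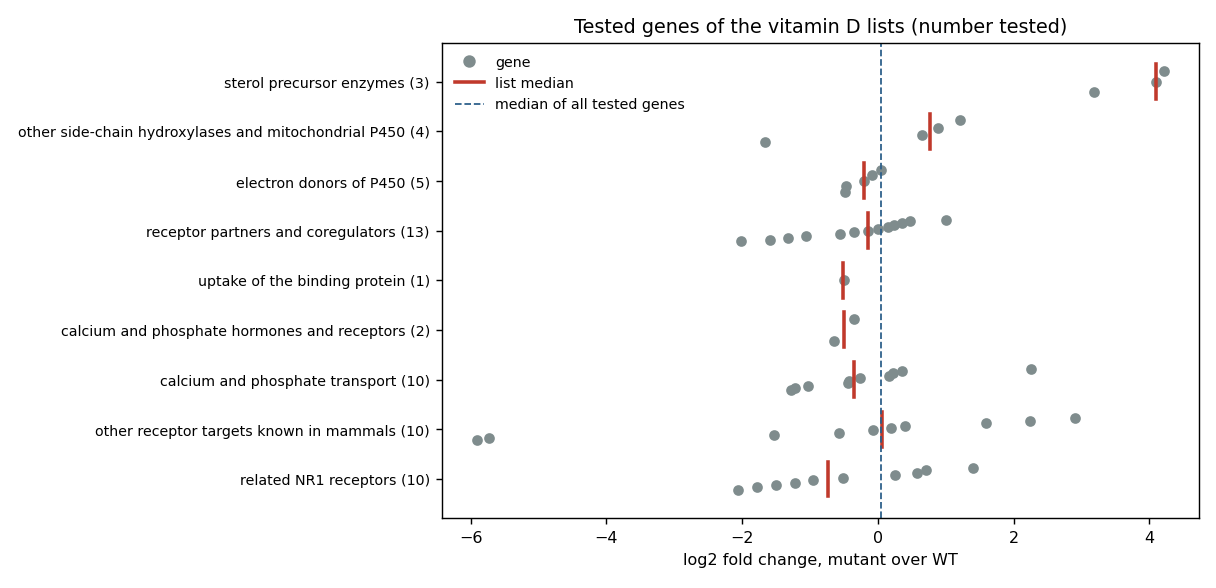
Log2 fold change, mutant over WT, of the 58 tested genes in the 9 lists around vitamin D (grey points, 1 per gene). Red bars are list medians and the dashed line is the median of all tested genes, at 0.04. The 3 sterol precursor enzymes lie right of the line, with a median of 4.09, and the other lists have medians between -0.74 and 0.76.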

How the data were processed

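Raw read counts per gene, whole and not normalized, were deposited by the authors as 1 table. Trimmomatic 0.36, STAR 2.7, featureCounts 1.5.2 and build GRCz11 are named, per the submitters' processing notes. No source used here states the strand setting or the treatment of multi-mapped reads, so counts of overlapping genes or near-identical copies are uncertain. The row with no gene name (0.568% to 1.02% of a library) was left out.

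Counts were fitted with edgeR 4.0.16 in R 4.3.3 by the quasi-likelihood test with robust dispersion, after filterByExpr and TMM. P-values were adjusted by Benjamini-Hochberg over 12889 genes. The SE is the size of the log2 fold change over the square root of F. Within-library ratios had 0.5 added to each count before the log. The members and lists were chosen with earlier results of these data known. Genes named from the lists are up to 3 called ones or, with none, the highest in level; others are named as chosen later. Some list genes are not reported here. Profiles used log2 CPM with a prior count of 2. Alternatives included DESeq2 1.42.0 and limma-voom (limma 3.58.1).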

Additional observations from a re-analysis of the deposited data

How the results depend on the processing

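The log2 fold change of cyp24a1 was negative under all 18 alternatives, from -12.63 to -9.69, and that of cyp2r1 positive, from 1.59 to 3.75. By edgeR the call of cyp24a1 was lost with the replicate block (adjusted p = 0.0755), without mutant replicate 2 (0.173) or 3 (0.072), and without WT replicate 1 (0.0828) or 2 (0.0872). It was also lost without all libraries holding oocyte transcripts, a setting that left only WT replicate 3 in its group. In the other 12 it held, DESeq2 and limma-voom among them. The setting without all libraries holding oocyte transcripts, added after the data were seen, gave -12.63 for cyp24a1, 3.75 for cyp2r1 and -1.06 for gc. Leaving out 1 library gave -11.52 to -9.69 for cyp24a1 and -1.07 to -0.58 for gc. With library totals, under the shift of 0.98 in all genes, cyp27b1 stood at 1.29, cyp2r1 at 3.19 (edgeR adjusted p = 0.0153, its one call) and gc at 0.06.

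Genes called numbered 31, and 467 with library totals (394 higher, 73 lower, against 15 and 16), 211 with no filter, 53 with a term for oocyte transcripts, 979 by DESeq2, 2 with the replicate block and 0 without all libraries holding oocyte transcripts. They numbered 2 to 77 with 1 library left out: 77, 2 and 21 without mutant replicates 1, 2 and 3, and 3, 5 and 5 without WT replicates 1, 2 and 3. List genes called numbered 0 of 58 tested (31 of 12889 over all genes), and 0 to 1 with 1 library left out. The 1 was called without mutant replicate 3 (21 of 13027 over all genes). List genes called numbered 7 of 58 with library totals (467 of 12889 over all genes) and 2 of 95 with no filter (211 of 23138). By DESeq2 they numbered 10 of 64 (979 of 15499), and with the oocyte term 1 of 58 (53 of 12889). The causes of these changes were not tested. Whether the replicate number pairs the libraries is not known. Deviations of same-numbered libraries correlated at 0.298, -0.211 and 0.32, and those of unlike-numbered libraries at -0.493 to 0.412. With so few libraries these values cannot decide it. The vdra, vdrb and trpv6 counts are too few to show a moderate change.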
